A study of Mus musculus with 7 samples.

Results

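A set of 10 genes of the fibroblast growth factor (FGF) pathway was followed in the lens epithelium of SPARC-null (KO) and wild-type (WT) mice. They were the receptors Fgfr1, Fgfr2, Fgfr3 and Fgfr4, the docking adaptor Frs2, and the feedback inhibitors Spry1, Spry2, Spry4, Spred1 and Dusp6. Every probe set whose only gene symbol in the platform annotation is one of these was taken. This gave 29 of 45037 probe sets, for 9 of the 10 genes. No probe set carried Frs2 as its only symbol, so Frs2 was not analysed here. All animals were 28 days old, on a C57Bl/6 background and littermates. The KO group was SPARC-null, with the deleted part of the gene not given in the sources used here, and held 4 lenses of 3 mice. The WT group held 3 lenses of 3 mice. Frozen sections were stained, and a laser under the microscope (laser capture) lifted out the epithelium. Each lens gave RNA that went through 2 amplification rounds onto an Affymetrix mouse array of its own. Lenses are named by animal and eye. The KO lenses were 1L and 1R (both eyes of animal 1), 4L and 7L, and the WT lenses were 2L, 5L and 6L. By the labels, KO animal 7 was the only male among the 6 animals. 1L and 1R were averaged on the log2 scale, so n = 3 animals in each group.

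FGF is the growth factor best known for driving lens epithelial cells to become fibre cells, and low FGF activity goes with survival and division of the epithelium. A bound FGF receptor, a tyrosine kinase, phosphorylates the adaptor Frs2, which recruits the machinery that turns on Ras, the kinases Raf and Mek, and finally Erk. Active Erk induces its own brakes: Sprouty and Spred proteins act on the path from receptor to Raf, and Dusp6 is a phosphatase that removes phosphate from Erk. In the lens, Spry1 and Spry2 are known as inhibitors that help cells keep their epithelial state.

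None of the 29 probe sets differed between KO and WT by the test across the whole array (limma, adjusted p = 0.99988 for each), and 3 of all 45037 passed, which is 0.00666%. At an unadjusted limma p under 0.05 there was 1 of 29, the brightest Spry2 probe set, or 3.45%, against 4.06% of all probe sets, so this share is near the background. KO and WT lenses overlapped at all 29, while they did not overlap at 5.33% of all probe sets. Of the 29, 14 had a higher and 15 a lower mean in KO. The median log2 difference was -0.01 over the 29 and -0.01 over all probe sets. A probe set that misses the threshold is not shown to be equal in the groups, so the 95% intervals are given with the differences.

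The arrays had equal trimmed means (500.003 to 500.004), and their number limits the precision of every value. Sparc itself separated the groups, with signals from 8.14 to 70.5 over KO and from 27371 to 49972 over WT lenses. Markers of the lens epithelium were present. Pax6, a transcription factor of eye development, gave 3817 to 7749, and Cdh1, E-cadherin, 3635 to 8049 across the 7 lenses. Foxe3, a transcription factor particular to this epithelium, was weak at 11.5 to 118. Fibre genes were also bright, such as Mip, the fibre cell aquaporin, at 14535 to 28472. In bulk RNA of this kind, fewer cells of a type and less RNA per cell cannot be told apart. WT lens 2L stood apart in its controls, with a Gapdh signal ratio of 3' over 5' end of 3.75, against 9.06 to 15.9 in the other 6 lenses. This ratio tends to rise as RNA is degraded or shortened by amplification.

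The probe sets were read against 27 control probe sets for bacterial transcripts, which mouse RNA should not bind, and the highest of these signals was 45.5. Of the 29 member probe sets, 16 lay above that level in all 7 lenses, and these cover 7 genes: Fgfr1, Fgfr2, Fgfr3, Spry1, Spry2, Spred1 and Dusp6. Another 7 lay at or under it in every lens. Signals of different probe sets are not compared with each other, since each binds with its own strength.

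**Figure D1:**
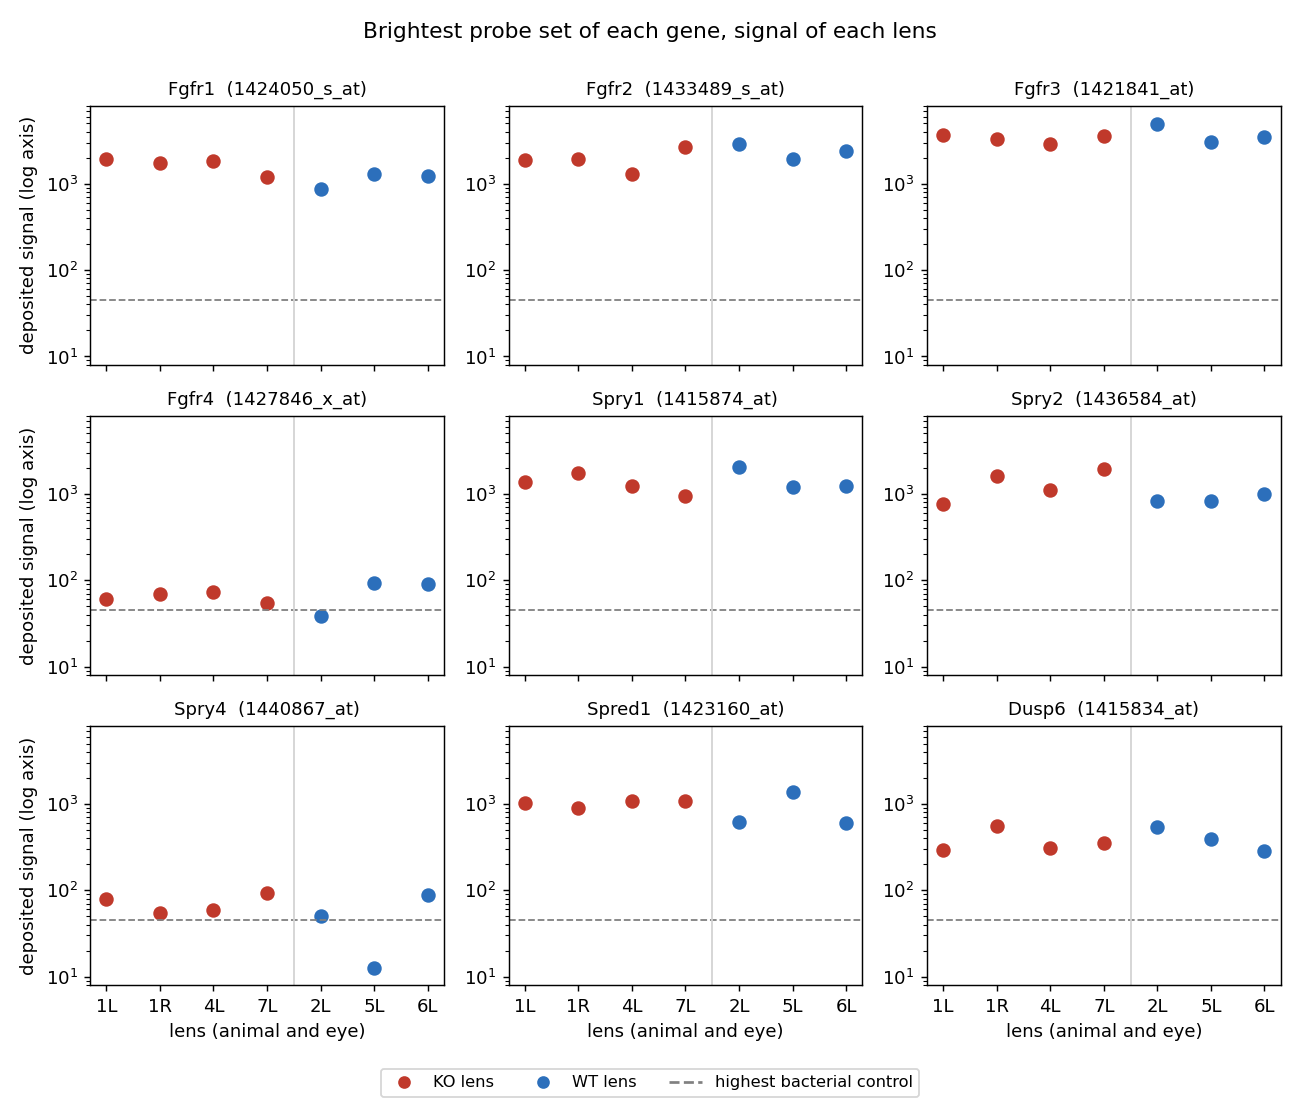
Deposited signal (log axis) of the brightest probe set of each of the 9 genes in each lens, KO lenses in red and WT lenses in blue, with the highest bacterial control (45.5) as a dashed line. KO and WT lenses overlap for every gene, and Fgfr4 and Spry4 lie near the control line while the other 7 genes lie above it in all lenses.

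Among the receptors, Fgfr1 had the largest KO to WT difference at a brightest probe set. Fgfr1 binds FGF1 and FGF2 and is one of the receptors that the lens uses for fibre differentiation. Its brightest probe set (1424050_s_at) gave signals of 1959 in 1L, 1745 in 1R, 1827 in 4L and 1182 in 7L, and of 862 in 2L, 1282 in 5L and 1240 in 6L. The KO lenses 1L, 1R and 4L lay above all WT lenses, and 7L lay among them. On the normalized log2 scale the KO level was 10.65 ± 0.39 and the WT level 10.13 ± 0.38 (SD, n = 3 animals). The difference was 0.52 (SE 0.27, 95% interval -0.09 to 1.14, limma unadjusted p = 0.0859). Without WT animal 2, the lowest lens, it was 0.30, and without KO animal 7 it was 0.75. The other Fgfr1 probe sets did not repeat this size. 1436551_at gave 449 in 1L, 374 in 1R, 324 in 4L and 218 in 7L, against 301 in 2L, 280 in 5L and 257 in 6L, a log2 difference of 0.10 (SE 0.30). There 1L, 1R and 4L again lay above all WT lenses, and 7L lay below all of them. The weakest, 1425911_a_at, was 163 in 1R and 142 in 2L and 46.5 to 64.1 in the other 5 lenses, with a difference of -0.08 (SE 0.45).

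Fgfr2, the receptor that in its epithelial splice form binds FGF7 and FGF10, had lower means in KO at its brightest probe set (1433489_s_at). Its signals were 1901 in 1L, 1942 in 1R, 1313 in 4L and 2642 in 7L, and 2869 in 2L, 1933 in 5L and 2401 in 6L. The signals of 1L and 4L lay below all WT lenses, and after normalization only that of 4L did. The level was 10.90 ± 0.47 in KO and 11.21 ± 0.29 in WT (SD, n = 3), a difference of -0.31 (SE 0.27, 95% interval -0.91 to 0.29, limma unadjusted p = 0.279). Without KO animal 4 the difference was -0.06, so its size rested largely on that animal. Without WT animal 2 it was -0.17, and without KO animal 7 -0.53. The probe set 1420847_a_at differed by -0.15 (SE 0.34). The third, 1443211_at, ranged from 66.8 to 108 over KO and from 32.3 to 115 over WT lenses, with WT lens 2L at or under the bacterial controls.

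Fgfr3, a receptor known in lens for a level that changes as cells become fibres, had its groups closer together at its brightest probe set (1421841_at), with WT lens 2L apart. Signals were 3635 in 1L, 3258 in 1R, 2921 in 4L and 3618 in 7L, and 4894 in 2L, 3017 in 5L and 3505 in 6L. The 6 lenses other than 2L lay between 2921 and 3635, with KO and WT mixed. The level was 11.71 ± 0.16 in KO and 11.89 ± 0.42 in WT (SD, n = 3). The difference was -0.18 (SE 0.24, 95% interval -0.71 to 0.35, limma unadjusted p = 0.468). The interval leaves room for a KO level of 0.611 to 1.28 times that of WT. Without WT animal 2 the difference was 0.05. The weaker Fgfr3 probe set, 1425796_a_at, differed by 0.06 (SE 0.32).

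Fgfr4, a receptor better known from liver and muscle, had 5 probe sets and none of them lay above the bacterial controls in all lenses. The brightest (1427846_x_at) gave 54.4 to 72.1 in KO lenses, and 38.3 in 2L, 94.1 in 5L and 90.8 in 6L. The next (1418596_at) gave 51.1 to 79.8 in KO lenses, and 40.2 in 2L, 58.4 in 5L and 90.0 in 6L. At both, only WT lens 2L was at or under the highest control. The remaining 3 probe sets were at or under it in all 7 lenses, so no direction is given for them. The log2 differences of the brighter pair were -0.23 (SE 0.40) and -0.04 (SE 0.38).

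**Figure D2:**
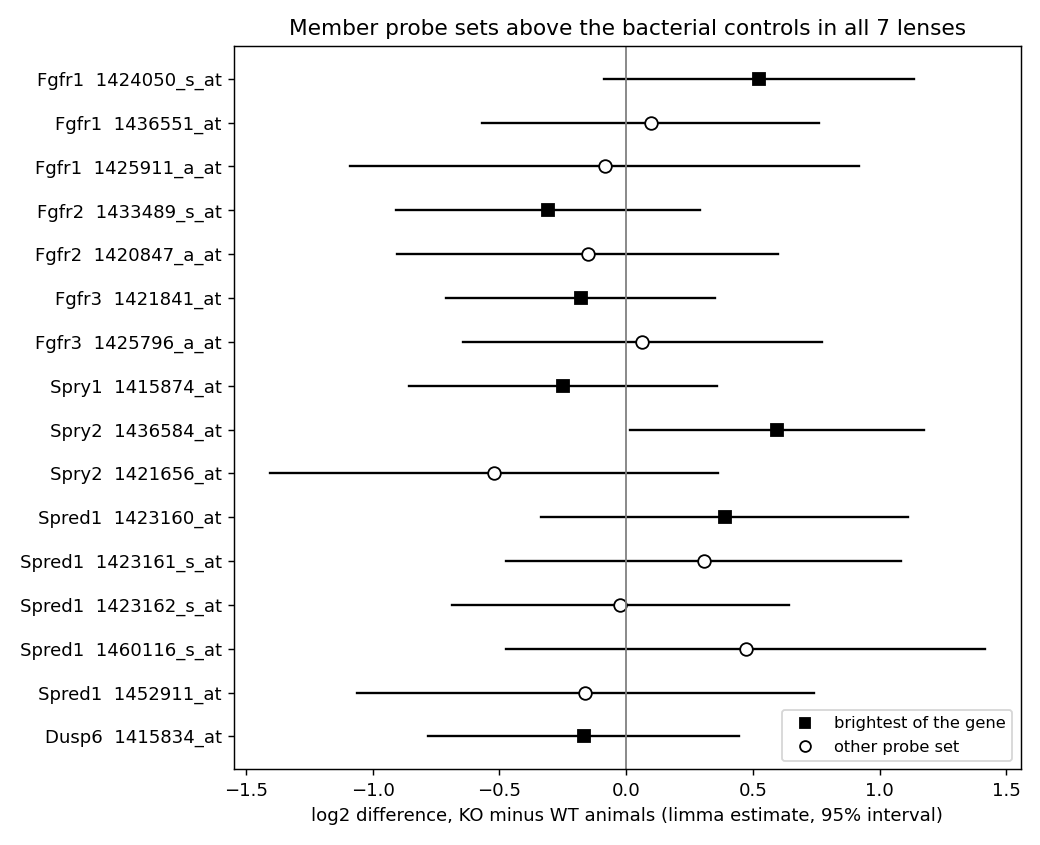
Log2 difference between KO and WT animals (limma estimate, line for the 95% interval) at the 16 member probe sets above the bacterial controls in all 7 lenses, with filled squares for the brightest probe set of a gene. Of these 16, 7 lie above 0 and 9 below, and the interval excludes 0 only at the brightest Spry2 probe set (0.01 to 1.18), without adjustment for the number of probe sets tested.

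Among the feedback inhibitors, the promoters of Spry1, Spry2 and Dusp6 are shown because these genes are transcribed in response to Erk, partly through ETS transcription factors. Each sequence is the 250 bases before the gene start in RefSeq (build GRCm38.p6), 5' to 3' on the gene's strand. Capitals mark CGGAA, a longer form of the ETS core GGAA, or its reverse complement TTCCG. This motif was chosen after the sequences had been seen.
Spry1, chr3:37639697-37639946, plus strand: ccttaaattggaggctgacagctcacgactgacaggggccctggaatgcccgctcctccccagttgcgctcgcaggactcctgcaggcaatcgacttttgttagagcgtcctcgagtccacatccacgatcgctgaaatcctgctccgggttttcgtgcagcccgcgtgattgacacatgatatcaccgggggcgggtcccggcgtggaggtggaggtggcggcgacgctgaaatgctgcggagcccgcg
Spry2, chr14:105896820-105897069, minus strand: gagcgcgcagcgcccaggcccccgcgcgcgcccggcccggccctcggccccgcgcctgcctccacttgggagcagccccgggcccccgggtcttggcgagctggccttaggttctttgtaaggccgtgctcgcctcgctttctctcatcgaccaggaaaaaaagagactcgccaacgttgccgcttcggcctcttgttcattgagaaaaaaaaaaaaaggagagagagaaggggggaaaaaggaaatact
Dusp6, chr10:99262981-99263230, plus strand: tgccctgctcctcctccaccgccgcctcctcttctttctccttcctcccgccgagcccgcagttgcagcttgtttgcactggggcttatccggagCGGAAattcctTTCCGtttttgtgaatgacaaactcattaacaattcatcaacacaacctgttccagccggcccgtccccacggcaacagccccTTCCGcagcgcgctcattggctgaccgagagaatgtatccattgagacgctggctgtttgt
Dusp6 held 3 matches to this longer form and Spry1 and Spry2 held 0 in this window. The shorter core GGAA does occur in the Spry1 and Spry2 sequences shown, and it was not counted. Of 32851 promoters searched in the same way, 25.2% held at least 1 match and 2.12% held 3 or more. A promoter entry was found for 8 of the 10 genes. Of those not shown, Frs2 held 2 matches to the longer form, Spred1 and Fgfr4 held 1 each, and Fgfr2 and Fgfr3 held 0. A match is a description of the letters and not a measured binding site.

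Spry1, a Sprouty protein that blocks the receptor signal, had 1 probe set (1415874_at). Its signals were 1376 in 1L, 1727 in 1R, 1222 in 4L and 950.0 in 7L, and 2039 in 2L, 1201 in 5L and 1247 in 6L. WT lens 2L was the highest and KO lens 7L the lowest, with the other 5 lenses between 1201 and 1727. The level was 10.27 ± 0.37 in KO and 10.52 ± 0.39 in WT (SD, n = 3). The difference was -0.25 (SE 0.27, 95% interval -0.86 to 0.36, limma unadjusted p = 0.380). Without WT animal 2 it was -0.03 and without KO animal 7 it was -0.05, so its size rested on these single lenses.

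Spry2, a second Sprouty with a like role, was the only member with an unadjusted limma p under 0.05. At the brightest probe set (1436584_at) signals were 754 in 1L, 1598 in 1R, 1102 in 4L and 1924 in 7L, and 832 in 2L, 819 in 5L and 998 in 6L. Of the KO lenses, 3 lay above all WT lenses and 1L lay below all of them. The level was 10.40 ± 0.44 in KO and 9.80 ± 0.21 in WT (SD, n = 3). This gave a difference of 0.60 (SE 0.26, 95% interval 0.01 to 1.18), or 1.51-fold, with a limma unadjusted p of 0.0458 and an adjusted p of 0.99988. On the log2 scale, 1L and 1R were 1.07 apart, further than the KO and WT means. With 1L as the only lens of that animal the difference was 0.42 (limma unadjusted p = 0.233), and with 1R it was 0.77 (0.0121). Without KO animal 7, the male and the highest lens, it was 0.34 (0.158). The weaker Spry2 probe set (1421656_at) lay the other way. It gave 48.2 in 1L, 46.0 in 1R, 92.9 in 4L and 48.0 in 7L, and 62.6 in 2L, 93.2 in 5L and 106 in 6L, a difference of -0.52 (SE 0.40, limma unadjusted p = 0.216). There 3 KO lenses lay below all WT lenses, at signals close to the highest bacterial control of 45.5. The Spry2 probe sets therefore gave no common direction.

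Spry4, another Sprouty induced by FGF, had 4 probe sets, and 3 of them were at or under the bacterial controls in all 7 lenses. The remaining one (1440867_at) gave 78.3 in 1L, 55.2 in 1R, 59.1 in 4L and 94.2 in 7L, and 50.3 in 2L, 12.6 in 5L and 88.2 in 6L. Only WT lens 5L was at or under the controls, and the other 6 lenses overlapped. The log2 difference was 0.49 (SE 0.50, 95% interval -0.62 to 1.60).

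Spred1, a Sprouty-related protein that holds back Raf through the Ras regulator neurofibromin, had 8 probe sets, 5 of them above the controls in all lenses. The brightest (1423160_at) gave 1027 in 1L, 893 in 1R, 1092 in 4L and 1068 in 7L, and 616 in 2L, 1359 in 5L and 607 in 6L. The KO lenses lay close together, inside the range of the WT lenses, of which 5L was the highest of all 7 and 2L and 6L the lowest. The SD was 0.11 around 10.05 in KO and 0.69 around 9.66 in WT (n = 3). The difference was 0.39 (SE 0.32, 95% interval -0.33 to 1.11, limma unadjusted p = 0.258). It was 0.79 without WT animal 5, 0.16 without WT animal 2 and 0.22 without WT animal 6, so its size moved with each WT lens. The other 4 probe sets above the controls differed by -0.16 to 0.47, with 2 higher and 2 lower in KO.

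Dusp6, the phosphatase that acts on Erk in the cytoplasm and whose transcript is often read as a gauge of FGF signalling, had 1 probe set (1415834_at). Signals were 294 in 1L, 549 in 1R, 305 in 4L and 351 in 7L, and 538 in 2L, 390.1 in 5L and 283 in 6L. By deposited signal the highest lens was 1R, of a KO animal, and the lowest 6L, of a WT animal. After normalization the lowest was 1L, so both ends were lenses of KO animal 1. The level was 8.51 ± 0.16 in KO and 8.68 ± 0.36 in WT (SD, n = 3), a difference of -0.17 (SE 0.27, 95% interval -0.78 to 0.45, limma unadjusted p = 0.555). Without WT animal 6 it was -0.36, without KO animal 4 -0.09, and without WT animal 2 close to 0, so it rested on single lenses. The lenses 1L and 1R, averaged in that SD, were 0.90 apart. The interval leaves room for a KO level of 0.581 to 1.36 times that of WT.

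**Figure D3:**
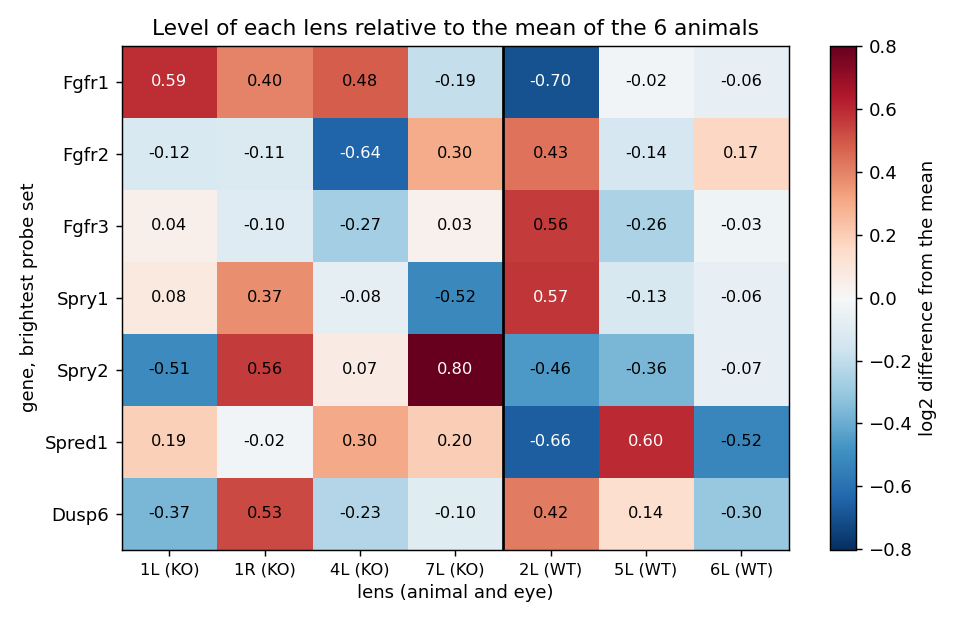
Log2 level of each lens minus the mean of the 6 animals, for the brightest probe set of the 7 genes above the bacterial controls in all lenses, with red for higher and blue for lower and KO lenses left of the black line. WT lens 2L is the lowest for Fgfr1 (-0.70) and the highest for Fgfr2 (0.43), Fgfr3 (0.56) and Spry1 (0.57), and the KO lenses 1L and 1R differ for Spry2 (-0.51 and 0.56) and Dusp6 (-0.37 and 0.53).

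Across the lenses the members did not move as one group. Relative to the mean of the 6 animals, 2L was at -0.70 for Fgfr1 and -0.66 for Spred1, but at 0.43 for Fgfr2, 0.56 for Fgfr3, 0.57 for Spry1 and 0.42 for Dusp6. Spry1 and Dusp6 both had 1R and 2L as their highest lenses, at 0.37 and 0.57 for Spry1 and at 0.53 and 0.42 for Dusp6. Spry2 had 7L and 1R as its highest, at 0.80 and 0.56. The eyes of KO animal 1 showed how far lenses of the same genotype and animal lay apart. At 10 of the 16 probe sets above the controls, 1L and 1R differed by more than the KO and WT means did. The median size of the KO to WT difference was 0.21 over these 16, and 0.18 over the 23129 probe sets of the array that met the same condition.

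The patterns most like each member over the 6 animals were sought among 11864 other genes above the controls in all lenses. With so many genes and 6 points, Pearson r near 1 is found for each member, and all points share the same arrays, so the names are a description. For Fgfr1 they were Ctnnd2, a delta catenin (r = 0.997), and Ppp1r11 (0.991). For Fgfr2 they were Scyl2 (0.990) and Ttc30b (0.989), and for Fgfr3 Ifrd2 (0.994) and Lamb2 (0.993), a laminin chain. Spry1 was most like Cavin1 (0.988), a coat protein of caveolae, and Rnf167 (0.986), and Spry2 most like Rab3gap2 (0.999) and Foxf1 (0.988). Spred1 was most like Mcmbp (0.983) and Slc35f3 (0.981), and Dusp6 most like Galnt11 (0.994) and Synpo2 (0.988). None of these nearest genes was one of the 10.

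Other genes of the pathway were read from lists written for this comparison, with the brightest probe set for each gene. No gene of the 4 lists passed the adjusted test (limma adjusted p = 0.99988 for all). At an unadjusted p under 0.05 there were 4.07% of the 18193 genes on the array. Of 22 FGF ligands measured, 14 were higher and 8 lower in KO. Their median difference (log2) was 0.06, against -0.03 over all genes. Only 5 ligands were above the bacterial controls in all lenses: Fgf1, Fgf9, Fgf11, Fgf12 and Fgf13, named here after their values were seen. Fgf1, a secreted ligand present in the lens, ranged from 926 to 1443 over KO and from 996 to 1373 over WT lenses, a difference of 0.04 (SE 0.21). Fgf11, an FGF homologue that stays in the cell, was at 396 to 492 and 358 to 534 (difference 0.06, SE 0.26). Fgf12 and Fgf13, also intracellular, differed by 0.55 (SE 0.28) and 0.49 (SE 0.30), and Fgf9, a secreted ligand, by 0.82 (SE 0.43). Fgf4 was the only ligand with an unadjusted limma p under 0.05 (0.0281), but 3 of its 4 KO lenses and all WT lenses were at or under the controls, so no fold is given.

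Of 24 genes for co-receptors and heparan sulphate, the sugar chain that FGF needs to hold its receptor, 15 were higher and 9 lower in KO (median 0.02). Sulf1, a sulphatase that trims heparan sulphate outside the cell and is known to lower FGF signalling, was higher in 4 of 4 KO lenses. Its signals were 8715 in 1L, 8869 in 1R, 11277 in 4L and 8030.0 in 7L, and 5154 in 2L, 6918 in 5L and 7920 in 6L. The lowest KO lens lay just above the highest WT lens. The difference was 0.51 (SE 0.19, limma unadjusted p = 0.0261, adjusted p = 0.99988). The second Sulf1 probe set differed by 0.60 (SE 0.18), and the third, at or under the controls in all lenses, is not read. Sdc2, the cell surface proteoglycan syndecan-2, ranged from 8653 to 12714 over KO and from 10744 to 11035 over WT lenses, a difference under its SE of 0.22.

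Of 23 adaptors and Ras to Erk transducers, 9 were higher and 14 lower in KO (median -0.02), all above the controls in every lens. Ptpn11, the phosphatase that binds Frs2, differed by -0.02 (SE 0.18) and Nras, a Ras protein, by 0.13 (SE 0.20). Rps6ka3, a kinase that Erk activates, gave 1628 in 1L, 1997 in 1R, 1395 in 4L and 1079 in 7L, and 782 in 2L, 785 in 5L and 977 in 6L. It was higher in 4 of 4 KO lenses, with a difference of 0.73 (SE 0.25, limma unadjusted p = 0.0171, adjusted p = 0.99988). A weaker Rps6ka3 probe set above the controls differed by -0.30 (SE 0.29).

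Of 27 other feedback genes and Erk targets, 13 were higher and 14 lower in KO (median -0.05). Egr1, an immediate early transcription factor that Erk induces, gave 2471 in 1L, 2857 in 1R, 1688 in 4L and 1936 in 7L, and 1468 in 2L, 1063 in 5L and 1433 in 6L. All 4 KO lenses lay above the WT lenses, with a difference of 0.67 (SE 0.24, limma unadjusted p = 0.0178, adjusted p = 0.99988). Fos, induced in the same way, ranged from 1988 to 3726 over KO and from 1011 to 5639 over WT lenses. Its difference of 0.34 (SE 0.49) was -0.21 without WT animal 5 and 0.97 without WT animal 6. Dusp1, a phosphatase of stress kinases and Erk, differed by -0.35 (SE 0.35), and by -0.62 without WT animal 5, -0.01 without WT animal 6 and -0.03 without KO animal 7. Fosl1, a relative of Fos, had an unadjusted limma p of 0.0478 at a difference of -0.91, but the controls were not exceeded in 3 of its 4 KO lenses, so its size is not resolved. At 5.33% of all probe sets KO and WT lenses did not overlap, and the 4 KO lenses come from 3 animals. In the 4 lists this held, higher in KO, for Fgf4, Sulf1, Rps6ka3, Egr1, Ugdh (0.30, SE 0.21) and Rasa3 (0.50, SE 0.33). Lower in KO, it held for Fosl1 and Map2k1 (-0.49, SE 0.26). Ugdh, Rasa3 and Map2k1 are named here after their values were seen.

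**Figure D4:**
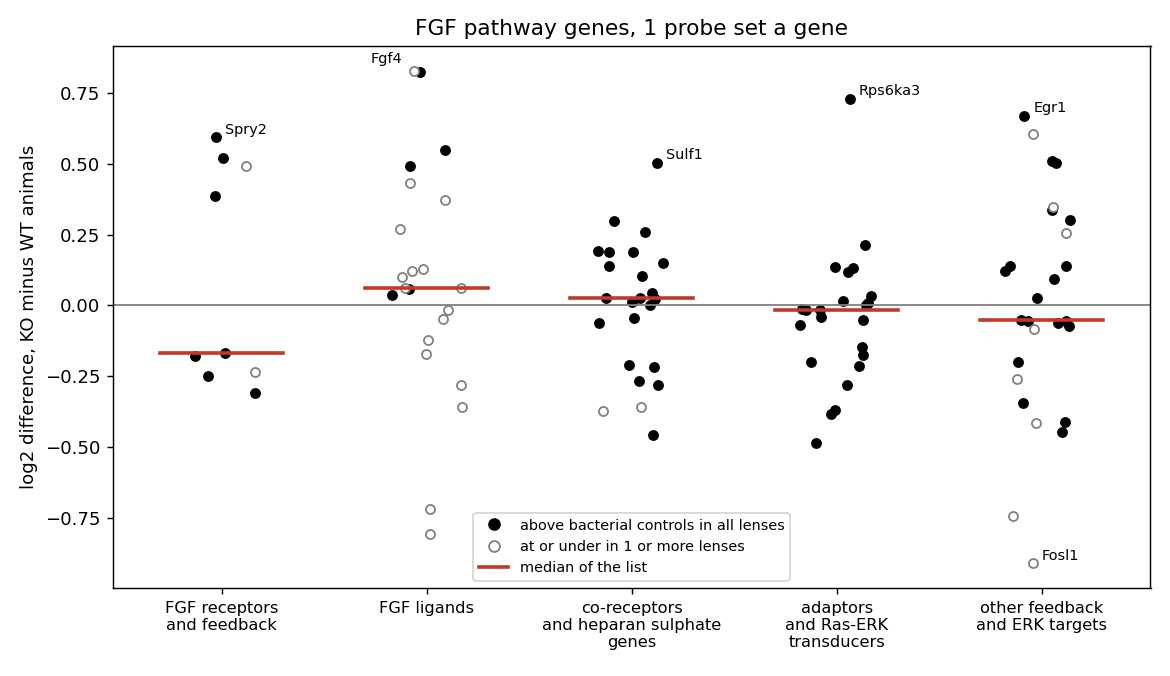
Log2 difference between KO and WT animals for each gene's brightest probe set (points), with the median of each list as a red line and open points for genes at or under the bacterial controls in 1 or more lenses. The list medians lie at -0.17 for the 9 receptor and feedback genes, 0.06 for ligands, 0.02 for co-receptors, -0.02 for transducers and -0.05 for other feedback genes, and the labelled genes had an unadjusted limma p under 0.05.

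Markers of neighbouring tissue were read beside these values, and none of them passed the adjusted test (limma). The 4 measured markers of inner retina and glia (Prkca, Glul, Gfap and Slc1a3), all above the bacterial controls in every lens, had sums from 10775 to 16857 over KO and from 7364 to 8772 over WT lenses. Glul and Gfap made up most of each sum. The sum of the 4 markers was 15888 in 1L, 16313 in 1R and 16857 in 4L, the lenses in which Fgfr1 was highest, and 10775 in 7L, where Fgfr1 lay among the WT lenses. Among 1L, 1R and 4L the orders differed, since 1L had the highest Fgfr1 signal and the lowest of their sums. The WT lenses did not follow the same order either. Their sum was 8772 in 2L, where Fgfr1 was lowest, 8373 in 5L and 7364 in 6L. Of 6 macrophage markers, only Csf1r was above the controls in all lenses, and it made up most of their sum, which ranged from 1235 to 2062 over KO and from 537 to 1132 over WT lenses. Csf1r ranged from 868 to 1445 over KO and from 361 to 886 over WT lenses, so its groups overlapped. C1qa differed by 1.61 (SE 0.46, limma unadjusted p = 0.00582) and C1qb by 1.18 (SE 0.46, limma unadjusted p = 0.0276). At each, 3 KO lenses lay above all WT lenses, and 2 WT lenses for C1qa and 1 for C1qb were at or under the controls. Ptprc differed by 0.29 (SE 0.36) and Cd68 by 0.07 (SE 0.36), and Aif1 was at or under the controls in every lens. Pigment cell markers summed to 33367 in 7L, the lens with the highest Spry2 signal, and to 6527 to 19752 in the other 6 lenses, with KO and WT overlapping. The other lenses did not follow this order. The sum was 19752 in 2L, where Spry2 was 832, and 13707 in 1R, where Spry2 was 1598. Dct and Pmel made up most of each pigment marker sum. Of the 6 pigment markers, 5 were higher in KO and 1 lower, which was Rpe65 (-1.13, SE 0.36). The part of these cells in the values of Fgfr1, Spry2, Egr1, Rps6ka3 and Sulf1 was not tested.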

How the data were processed

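The deposited values are one linear intensity per probe set and array. The sources used here do not name the summary software; each array had the same mean after trimming 2% at each end. From these, 64 control probe sets were left out. The other 45037 of 45101 were turned into log2(signal + 16) with no filter on low values. The added 16 shrinks the fold change of weak probe sets. The log2 values were then quantile normalized between arrays. The lenses 1L and 1R were averaged. Groups were compared by limma 3.58.1 under R 4.3.3 (lmFit, then eBayes with trend on). Tests were two-sided, p-values were adjusted by Benjamini-Hochberg over the whole array, and the threshold was 0.05. The code was tested on simulated data. Labels name separate mice and give KO and WT as littermates. Amplification from the 3' end favours probe sets near it.

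The platform annotation gave 1 gene symbol to 34945 probe sets, and 34741 of them were found in the GRCm38.p6 gene table. The brightest probe set of a gene is that with the highest mean over the animals. All member probe sets were described, and of the pathway lists the genes with an unadjusted p under 0.05 and the 2 brightest. The members and lists were chosen with earlier results of these data known. Alternatives were the handling of 1L and 1R, scaling, a low-value filter, pseudocounts of 1 and 64, no trend, array weights, thresholds, and leaving out each animal.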

Additional observations from a re-analysis of the deposited data

Results flagged for a closer look

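The 4 KO lenses were searched for a lens far from the others at the 16 member probe sets above the bacterial controls. Such a gap was found at 2 of them, where about 1 in 20 is the nominal rate for 4 independent values. The share over all probe sets of the array was not worked out, so the 2 are not read as an excess. At the weakest Fgfr1 probe set (1425911_a_at), KO lens 1R was at 7.40 on the log2 scale and the other KO lenses at 6.10 to 6.30, a gap of 0.848 of the whole range. At the weaker Spry2 probe set (1421656_at), KO lens 4L was at 6.77 and the others at 5.86 to 5.98, a gap of 0.869 of the range. Lenses 1L and 1R come from the same animal, so the 4 values are not independent.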

How the results depend on the processing

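No member probe set passed an adjusted p of 0.05 under any of 18 alternatives, and 2 to 3 of all probe sets did (limma). At an unadjusted p under 0.05, all probe sets numbered 1828, of which 1011 were higher in KO. They numbered 770 after filtering low values and 3150 with array weights. The share higher in KO turned with the scaling: 801 of 1893 with median centring and 1271 of 1845 with signals as deposited. Among members the count of 1 became 0 with the animal as a block, with the filter and without the trend, 2 with array weights, and 1 to 2 on leaving out an animal. These were not the same probe sets. The brightest Spry2 probe set stayed higher in KO, at 0.34 to 0.77, but its unadjusted p, 0.0121 to 0.233, missed 0.05 in 10 of 17 alternatives. It did so with 7 lenses (0.111), the left lens only (0.233), median centring (0.0899) and array weights (0.0743), where Fgfr1 or weak Fgfr4 probe sets passed instead. The brightest Fgfr1 probe set passed with 7 lenses (0.0461), array weights (0.0375) and without KO animal 7 (0.0176).

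The median of the 9 member genes, -0.17, was -0.02 with 1R alone for KO animal 1, -0.12 with signals as deposited, -0.01 with array weights, -0.05 when a gene's probe sets were averaged, and -0.21 to 0.05 on leaving out an animal. For ligands it was 0.49 with the filter. For co-receptors it was 0.09 with the right lens only and -0.06 with median centring, and -0.06 to 0.05 on leaving out an animal. For transducers it was -0.06 with the left lens only and -0.14 with centring. For other feedback genes it was 0.08 with the left lens only, 0.05 with signals as deposited, 0.04 with array weights, 0.06 with the mean of probe sets, and -0.08 to 0.09 on leaving out an animal.

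Some differences near 0 changed sign. Fgfr1 1425911_a_at was 0.02 with 7 lenses taken as independent, 0.10 with the right lens only and 0.21 with array weights. Fgfr3 1425796_a_at was -0.04 with the left lens only. Spred1 1423162_s_at was 0.10 with the left lens only and 0.01 with signals as deposited. Sdc2 was -0.04 with 7 lenses, -0.08 with the left lens, -0.02 with the block, -0.05 with centring and -0.03 with array weights. Ptpn11 was 0.03 with the right lens. Fgf1 was -0.01 with 7 lenses, -0.04 with the right lens and -0.07 with centring. Fgf11 was -0.02 with centring and -0.05 with array weights. Leaving out an animal gave -0.35 to 0.32 for Fgfr1 1425911_a_at, -0.09 to 0.34 for Fgfr1 1436551_at, -0.29 to 0.06 for Fgfr2 1420847_a_at, -0.35 to 0.05 for Fgfr3 1421841_at and -0.09 to 0.21 for Fgfr3 1425796_a_at. It gave -0.23 to 0.24 for Spred1 1423162_s_at, -0.48 to 0.12 for Spred1 1452911_at, -0.15 to 0.16 for Sdc2, -0.12 to 0.07 for Ptpn11, -0.01 to 0.28 for Nras, -0.21 to 0.97 for Fos, -0.09 to 0.13 for Fgf1 and -0.15 to 0.20 for Fgf11. The cause of these shifts was not tested.

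The planned block with an estimated correlation was not run, since 1 pair of lenses gave no estimate. A block with the correlation set to 0.5 was chosen after seeing the data. No paired analysis was possible because KO and WT animals share no replicate numbers. Probe sets near the highest bacterial control have poorly resolved differences.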

Other observations

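Other marker lists showed what else the captured tissue held. The 5 photoreceptor markers measured (Sag, Gnat1, Pde6b, Rcvrn and Prph2) were above the bacterial controls in all 7 lenses. They had sums from 36774 to 56056 over KO and from 32683 to 59569 over WT lenses. The 5 skeletal muscle markers had sums from 8242 to 32982 over KO and from 7216 to 53964 over WT lenses. The 4 markers of corneal and surface epithelium summed to 6570 to 17852 and 9504 to 20488, and the 5 stromal markers to 16859 to 29118 and 20131 to 35885. Of 5 blood and endothelial markers, Hba-a1 and Pecam1 were at or under the controls in all lenses, and the sums ranged from 553 to 628 over KO and from 248 to 583 over WT lenses. The 9 fibre markers had sums from 146853 to 193544 over KO and from 126384 to 193706 over WT lenses, with the lowest value in 2L. The 8 lens epithelium markers summed to 98124 to 127117 and 86211 to 121413, and Cryaa and Cryab made up most of each sum. Gene by gene, 6 of the 8 epithelium markers were lower in KO and 2 higher (median -0.18). Of the 9 fibre markers, 7 were lower and 2 higher (median -0.14). The largest fibre difference was -0.83 for Dnase2b (SE 0.17, limma adjusted p = 0.918). Its signal was 1338 in 1L and 5671 in 1R, 2.06 apart on the log2 scale, and 4835 to 5384 in the WT lenses. Because 1L and 1R were averaged, the SE leaves out this gap.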
